A study of Drosophila melanogaster with 96 samples.

Results

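The genes described here encode the subunits of the fly proteasome and the extra copies of those subunits. They were chosen by FlyBase symbol, as every gene whose symbol starts with Prosalpha, Prosbeta, Rpn or Rpt followed by a digit. The rule found 48 of the 17370 genes listed, of which 32 are the canonical subunits and 16 are paralogs, recognised by a T or an R after the subunit's name. Messenger RNA was counted in 96 single adult Drosophila melanogaster. The transcripts of 15 of the 16 paralogs were read in males and were at or near 0 in all libraries labelled female but 1. The other paralog, Prosalpha1R, had 0 reads in both sexes.

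All flies were virgin adults of the w1118 laboratory stock, 3 days old, each housed alone in a well of a feeding plate and sequenced as a whole body. They ate a chemically defined liquid food and were starved on buffered saline. They were then refed that food, dyed and holding the common drug solvent dimethyl sulfoxide (DMSO) at none, 0.1%, 0.2% or 0.4% by volume. Refeeding lasted 0, 2, 4 or 8 h, so that the flies at 0 h had been starved and not refed. Each of the 32 combinations of sex, time and DMSO level held 3 flies. A separate plate was used for each time, and effects of time, of the plate and of the hour of collection cannot be told apart. All female libraries came from 1 sequencing run. That run also held the males on food without DMSO at 0 and 2 h and 2 of the 3 at 4 h, and another run held the other males.

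The proteasome is the protease that degrades proteins tagged with ubiquitin. Its barrel-shaped core is built of stacked rings of alpha subunits, which gate the entrance, and beta subunits, of which beta1, beta2 and beta5 carry the protease sites. A regulatory particle at the end of the barrel holds a ring of Rpt ATPases that unfold the substrate, Rpn scaffold and receptor subunits that bind ubiquitin, and a lid in which Rpn11 cuts the ubiquitin chain off. In Drosophila many of the subunits have a further gene that is expressed in the male germ line, and Prosalpha6T is known to be needed for sperm formation. Testes were not sampled on their own in this series, so the tissue in which the paralogs were transcribed was not measured.

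The libraries held 958896 to 9215796 gene counts, with a median of 4777951, and ribosomal RNA genes took 4.81 to 51.4% of them. Levels are given as CPM, counts scaled to library size, in which 3 reads corresponded to 0.326 to 3.13. Bounds and intervals given below cover counting error only. The summed testis and sperm, accessory gland, yolk and male dosage compensation markers followed the labelled sex in all libraries but 1. Replicate 3 of the females at 8 h on 0.4% DMSO held male transcripts, with the 33 testis and sperm markers at a median of 43.6% of their male median. The female tests at 8 h and of DMSO and the sex tests at 8 h include it, and the values of the members named from those tests are also given without it. In the other 47 female libraries 23 of those 33 markers had a median of 0. Summed egg shell markers overlapped between the sexes, at 16.5 to 15300 CPM in those 47 and 5.5 to 45.4 in the males. Summed female germline markers did too, at 467.6 to 6850 and 631.2 to 2213 CPM. The shallowest library was male, 4 h, 0.4% DMSO, replicate 1, with 958896 counts.

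A single coding exon was annotated in 6 of the 16 paralogs and in 4 of the 32 canonical genes, a difference that was not tested. The 4 canonical genes on the X chromosome, Prosalpha4, Rpt3, Rpt4 and Rpt6, all had paralogs, and those paralogs were autosomal. Prosbeta2R1 and Rpn13R were the paralogs on the X, and their canonical genes were autosomal. The pair Prosalpha1 and Prosalpha1R, neighbours on chromosome arm 2R with equal coding lengths of 732 bases, had a median count of 0 in both sexes. Near-identical copies can lose their reads to the class shared between genes, so the level of that pair is uncertain and it was not tested. That left 31 canonical subunits and 15 paralogs with reads. The counts were stranded, and the annotation placed a gene on the opposite strand of 13 canonical genes and 2 paralogs. Those paralogs were Prosalpha1R and Rpt3R, the latter opposite Alg12. An overlap on the same strand was found for Prosbeta4R2 alone, with the odorant receptor gene Or23a.

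The first question was how the sexes differed. It was asked with 6 females and 6 males on food without DMSO at 0 and 2 h, all from 1 run. The 15 paralogs are described by their CPM, normalised by the trimmed mean of M-values (TMM) over all 96 libraries. They passed the expression filter through the males alone, so the difference itself was bound to be found and no test of it is given. Where all 6 females held 0 reads, the fold is a lower bound made with 3 counts over the female group, or 0.0965 CPM.

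Among the alpha subunit paralogs, Prosalpha6T (FBgn0032492, chromosome arm 2L) lay at 61.0 to 115.8 CPM in the 6 males, with a median of 92.6, and at 0 in the 6 females. It was at least 948-fold higher in males. Prosalpha4T2 (FBgn0017556, 2R) lay at 42.6 to 88.2 CPM with a median of 71.4 in males, and 2 reads were found over the 6 females, a ratio of 1084 with a 95% interval of 299.6 to 8959. No female reached the level of any male for either gene. Prosalpha4T1 (FBgn0265606, 3R) was lower in males, at 13.9 to 27.2 CPM with a median of 21.1, and at least 213-fold above the females. Prosalpha3T (FBgn0261395, 3R) had the lowest median of the 15, 19.4 CPM with a range of 8.07 to 24.7, and was at least 189.9-fold above the females.

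Among the beta subunit paralogs Prosbeta5R1 (FBgn0034842, 2R), a copy of a subunit with a protease site, had the highest male median of the 15. It lay at 70.0 to 132.3 CPM in males with a median of 113.9, at least 1129-fold above the females. Prosbeta4R2 (FBgn0031443, 2L) lay at 49.7 to 125.5 CPM with a median of 90.3, at least 931-fold above them. Both genes have a second copy at a lower level. Prosbeta5R2 (FBgn0051742, 2L) had a male median of 30.6 CPM (18.7 to 41.0) and Prosbeta4R1 (FBgn0031442, 2L) one of 24.0 (8.39 to 32.5). The copies of Prosbeta2, the other subunit with a protease site that has paralogs, were closer to each other. Prosbeta2R1 (FBgn0029812, X) lay at 20.7 to 42.1 CPM with a median of 35, and Prosbeta2R2 (FBgn0037296, 3R) at 18.7 to 44.2 with a median of 32.8. All 4 of these genes were at 0 in the 6 females.

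The copies of the same subunit kept an order from male to male. Per kilobase of coding sequence, Prosalpha4T1 stood at a median of 0.288 of Prosalpha4T2 and was the lower of the pair in every one of the 48 males. Prosbeta4R1 stood at 0.287 of Prosbeta4R2, again lower in all 48. Prosbeta5R1 stood at 3.36 times Prosbeta5R2 and was the higher in all 48. Prosbeta2R1 stood at 1.17 times Prosbeta2R2 and was the higher in 40 of 48, so that the order of that pair was not fixed.

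Among the paralogs of the ATPase ring, Rpt4R (FBgn0036224, 3L) lay at 22.7 to 38.1 CPM in males with a median of 32.9 and at 0 in the 6 females. Rpt6R (FBgn0039788, 3R) lay at 37.8 to 66.1 CPM with a median of 54.1 in males and at 0 to 0.395 in females, from 4 reads. Rpt3R (FBgn0037742, 3R) was the paralog most often read in females. It lay at 0.169, 1.05 and 2.42 CPM (lowest, median and highest) in the 6 females, from 39 reads, and at 39.7, 56.7 and 64.5 in the 6 males. The groups did not overlap. Alg12 lies on the opposite strand of Rpt3R, and whether its reads entered the low female counts was not tested.

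In the lid and among the receptors, Rpn12R (FBgn0036465, 3L) lay at 48.7 to 64.0 CPM in males with a median of 53.9 and at 0 in the 6 females. Rpn13R (FBgn0029745, X), a copy of a ubiquitin receptor, lay at 18.1 to 44.6 CPM with a median of 37.7, and 2 reads were found over the females. The ratio for Rpn13R was 561 with a 95% interval of 154.8 to 4638.

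**Figure D1:**
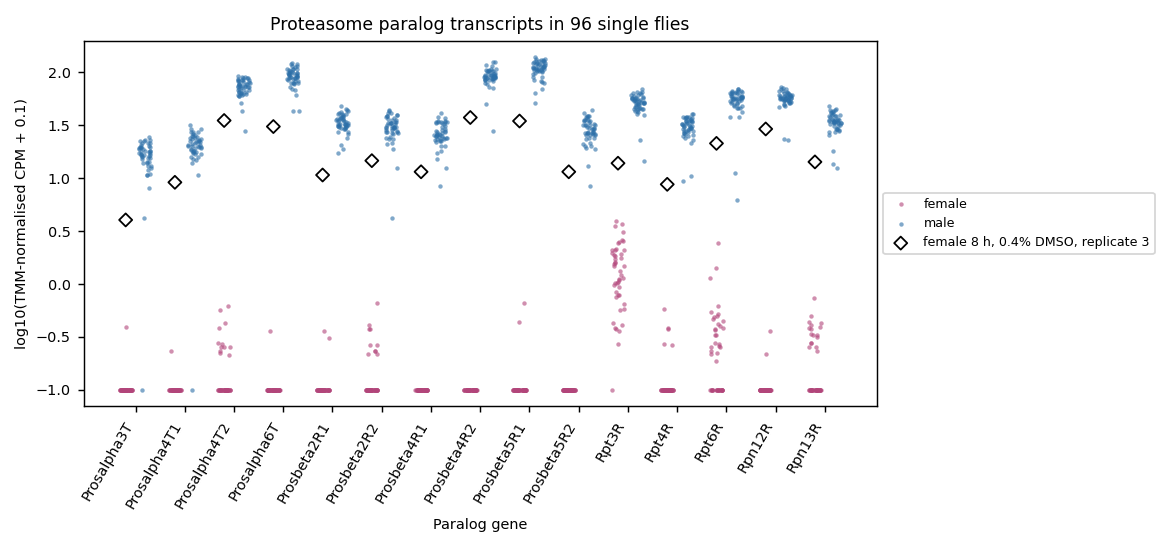
Level of each of the 15 paralogs in each of the 96 flies, as log10 of TMM-normalised CPM plus 0.1, with females in red, males in blue and the female library with male transcripts as an open diamond. More than 23 of the 47 other females lie at the bottom of the axis, where a gene had 0 reads, for 13 of the 15 genes, Rpt3R and Rpt6R being the exceptions. The diamond lies above all of those females for every gene, below the lowest male for 5 genes and within the male range for 10.

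Over all 47 females without male transcripts the same order held. Rpt3R had 375 reads in sum and at least 1 read in 46 of the 47, with a highest level of 3.8 CPM. Rpt6R had 71 reads and was at 0 in 21 of the 47, and Rpn13R had 24. Prosalpha4T2 had 14, Prosbeta2R2 had 13 and Rpt4R had 7. The 9 other paralogs had 0 to 3 reads each over the 47 females, and Prosbeta4R1, Prosbeta4R2 and Prosbeta5R2 had 0. In the library with male transcripts all 15 paralogs were read, at 23.1, 39.1 and 50.9% of their male medians (lowest, median and highest). The 33 testis and sperm markers spread more widely, at 0, 43.6 and 112.6%.

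The share of a subunit's transcript that came from its paralogs was taken within each library as their percent of the summed CPM per coding kilobase of the canonical gene and its paralogs. It does not depend on how libraries are scaled. In the 48 males the share was highest for Prosbeta4, a core subunit without a protease site, at 37.0, 59.8 and 66.5% (lowest, median and highest). Prosalpha4 followed at 33.7, 54.9 and 65.0%, and Prosalpha6 at 39.5, 53.2 and 63.1%. Medians also passed 50% for Prosbeta5 (52.6%, range 36.0 to 62.5) and the lid subunit Rpn12 (52.0%, range 29.9 to 63.3). The ranges of these 5 subunits overlapped over most of their width.

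The other shares were lower. The ATPases Rpt3, Rpt6 and Rpt4 had medians of 46.3, 35.9 and 30.6%, and Prosbeta2 had one of 38.3%. Rpn13 had 21.2% and Prosalpha3 the lowest, 11.4% (0 to 15.1), with the value of 0 in replicate 1 of the males at 8 h on 0.1% DMSO. In females the highest share of any subunit in any of the 47 libraries was 2.28%, for Rpt3. Over time, on the 3 foods with DMSO, Prosalpha4 had male medians of 57.2, 52.0, 56.7 and 54.3% at 0, 2, 4 and 8 h. The medians lay further apart for Prosbeta2, at 41.4, 36.6, 39.6 and 34.5%, and Rpt6 had 38.0, 33.3, 36.4 and 33.4%. The ranges of the 4 times overlapped for these 3 subunits, and changes of the shares were not tested.

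**Figure D2:**
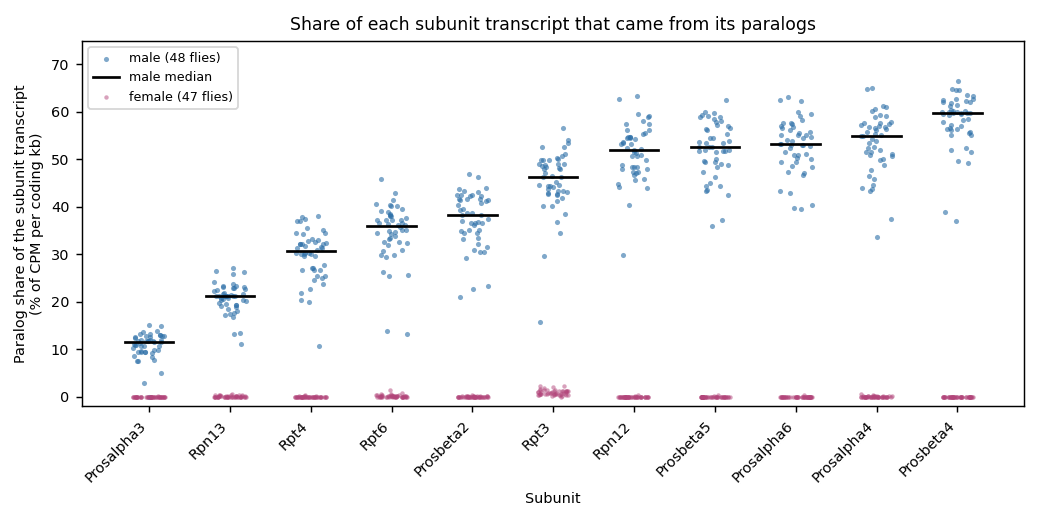
Share of each subunit's transcript that came from its paralogs, as a percent of CPM per coding kilobase, in each of 48 males (blue, bar at the median) and 47 females (red), for the 11 subunits with a tested paralog. Male medians run from 11.4% for Prosalpha3 to 59.8% for Prosbeta4, and the females lie near 0.

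The canonical subunits are given apart by whether they had a paralog, and the difference between those sets was not tested. edgeR's quasi-likelihood test, adjusted by Benjamini-Hochberg, was used as for all adjusted p-values below. Of the 11 with a paralog, 9 were higher in females, 1 was higher in males and 1 was not called, with a median log2 fold change (female minus male) of 0.59. Of the 20 without a paralog, 5 were higher in females, 4 in males and 11 were not called, with a median of -0.10. Of all 12069 genes tested, 65.9% were called, 26.1% as higher in females and 39.8% as higher in males, with a median of -0.19. The whole count depended on scaling, since normalisation without scaling factors moved the median of all genes by 0.64 on the log2 scale. Without those factors 10 of the 11 and 10 of the 20 were higher in females and none in males. The count depended on the flies as well. With TMM over all 96 libraries, where most males came from another run, 22 of the 31 canonical genes were higher in females and 5 in males. At 8 h on the 3 foods with DMSO, where the sexes came from different runs, 23 and 1 were. In the first 12 flies the medians of canonical genes with and without a paralog differed by 0.69. That difference is little touched by scaling, which moves all genes by about the same amount.

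Rpt3, an ATPase of the substrate-unfolding ring, showed the largest difference among the canonical genes with TMM scaling. It lay at 90.2, 132.6 and 151.5 CPM (lowest, median and highest) in the 6 females and at 52.6, 69.0 and 88.2 in the 6 males. The groups did not overlap, and the log2 fold change was 0.85 (SE 0.14, adjusted p = 0.000113). Where the 6 females and 6 males are said not to overlap, the share of all genes for which this held is not given. Rpt4 lay at 92.4, 133.0 and 175.9 CPM in females and at 64.5, 80.2 and 88.2 in males, again with no overlap, a change of 0.74 (SE 0.14, adjusted p = 0.000262). Rpt6 lay at 99.2 to 205.5 CPM in females and 96.3 to 137.8 in males, which overlap, and its change was 0.37 (SE 0.15, adjusted p = 0.039). Of the other 3 ATPases only Rpt5 was called, at 0.40 (adjusted p = 0.0224). The call of Rpt6 was lost without any of 10 of the 12 flies and that of Rpt5 without any of 9. Without replicate 2 of the females at 2 h their values were 0.185 and 0.235, and without replicate 2 of the females at 0 h 0.226 and 0.241.

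In the alpha ring both called genes, of 6 tested, had a paralog and were higher in females. Prosalpha6 lay at 114.3, 136.4 and 177.1 CPM in females and at 67.0, 80.7 and 98.2 in males, without overlap, a log2 fold change of 0.78 (SE 0.14, adjusted p = 0.000253). Prosalpha4 lay at 95.5, 139.4 and 186.5 CPM in females and at 62.3, 86.8 and 101.9 in males, a change of 0.72 (SE 0.17, adjusted p = 0.0016) with ranges that overlapped. Prosalpha3, whose paralog gave the smallest share, lay at 118.0, 141.9 and 174.8 CPM in females and 145.7, 153.4 and 165.9 in males. It was not called, at -0.13 (adjusted p = 0.373), but other settings called it higher in females. Its value was 0.50 without scaling factors (adjusted p = 0.0439), 0.24 with all 96 libraries (adjusted p = 7.05e-06) and 0.46 at 8 h on the 3 foods with DMSO (adjusted p = 0.000217). Without the library with male transcripts the last value was 0.41 (adjusted p = 0.00127).

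In the beta ring the 3 genes with paralogs were higher in females. Prosbeta4 lay at 93.3, 129.3 and 160.3 CPM in females and at 71.2, 82.1 and 100.1 in males, a log2 fold change of 0.59 (SE 0.14, adjusted p = 0.002) with ranges that overlapped. Prosbeta5 changed by 0.47 (adjusted p = 0.00602), from a male median of 131.0 to a female median of 179.7 CPM and with no overlap. Prosbeta2 changed by 0.42 (adjusted p = 0.00943), from 99.5 to 134.8 CPM, with ranges that met at their ends. Without replicate 2 of the females at 2 h neither of the last 2 genes was called, at 0.315 and 0.27, and without replicate 2 of the females at 0 h Prosbeta2 was not, at 0.294. Of the 4 beta genes without a paralog, Prosbeta1, Prosbeta3 and Prosbeta7 were higher in males with TMM scaling. Prosbeta1, which carries a protease site and has no paralog, lay at 91.4, 111.8 and 136.1 CPM in females and at 151.2, 171.0 and 185.5 in males, without overlap. Its log2 fold change was -0.58 (SE 0.12, adjusted p = 0.000749), and 0.04 without scaling factors. Prosbeta3 and Prosbeta7 gave -0.54 and -0.33 with TMM (adjusted p = 0.00299 and 0.0294) and 0.08 and 0.27 without scaling factors. The call of Prosbeta7 was lost without replicate 1 or replicate 3 of the females at 0 h, at -0.28 and -0.33.

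In the lid 4 of 8 genes were higher in females and 1 in males. Rpn12, the lid gene with a paralog, lay at 66.7, 100.3 and 128.0 CPM in females and at 50.1, 56.3 and 72.3 in males, which overlap, a log2 fold change of 0.73 (SE 0.17, adjusted p = 0.00162). Rpn5, Rpn11 and Rpn3 were higher in females by 0.45, 0.45 and 0.34 (adjusted p = 0.0119, 0.0214 and 0.0387). Those calls were lost without any of 3, 6 and 11 of the 12 flies. Without replicate 2 of the females at 2 h the values were 0.243, 0.245 and 0.177, and without replicate 2 of the females at 0 h 0.337, 0.284 and 0.165. Rpn6 was higher in males with TMM, at -0.48 (adjusted p = 0.00968), and gave 0.13 without scaling factors.

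Among the 4 scaffold and receptor genes, Rpn1, a scaffold at the base, was the canonical gene without a paralog that differed most towards females. It lay at 116.2, 188.7 and 231.9 CPM in females and at 82.2, 109.4 and 122.9 in males, which overlap, a change of 0.71 (SE 0.16, adjusted p = 0.00114). Rpn13 was the 1 gene with a paralog that was higher in males. It lay at 97.0, 135.3 and 149.8 CPM in females and at 154.6, 179.6 and 185.8 in males, without overlap. Its change was -0.42 (SE 0.12, adjusted p = 0.00726) with TMM and 0.19 without scaling factors. At 8 h on the 3 foods with DMSO, where the sexes came from different runs, Rpn6, Rpn13 and Prosbeta7 had values of 0.14, 0.08 and 0.00 even with TMM. Without the library with male transcripts these were 0.09, 0.04 and -0.07, and none of the 3 was called by edgeR's quasi-likelihood test. Whole bodies were measured, so fewer cells of a type and less RNA per cell cannot be told apart for any of these genes. Female germline and egg shell markers moved with sex as well: 22 of 24 and 15 of 16 tested were higher in females. Of the testis and sperm markers 32 of 33, and of the accessory gland markers 14 of 14, were higher in males. Markers at 0 in 1 sex passed the expression filter through the other alone, so their direction was bound to be found. In the 47 females all 14 accessory gland markers and 23 of the 33 testis and sperm markers had a median of 0. In the 48 males 14 of the 20 egg shell markers did. The testis and sperm markers summed to 12110 to 21470 CPM in the 6 males and 35.2 to 103.5 in the 6 females, and the accessory gland markers to 5794 to 13930 CPM and 0. The part of these 4 lists in the canonical differences was not tested.

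**Figure D3:**
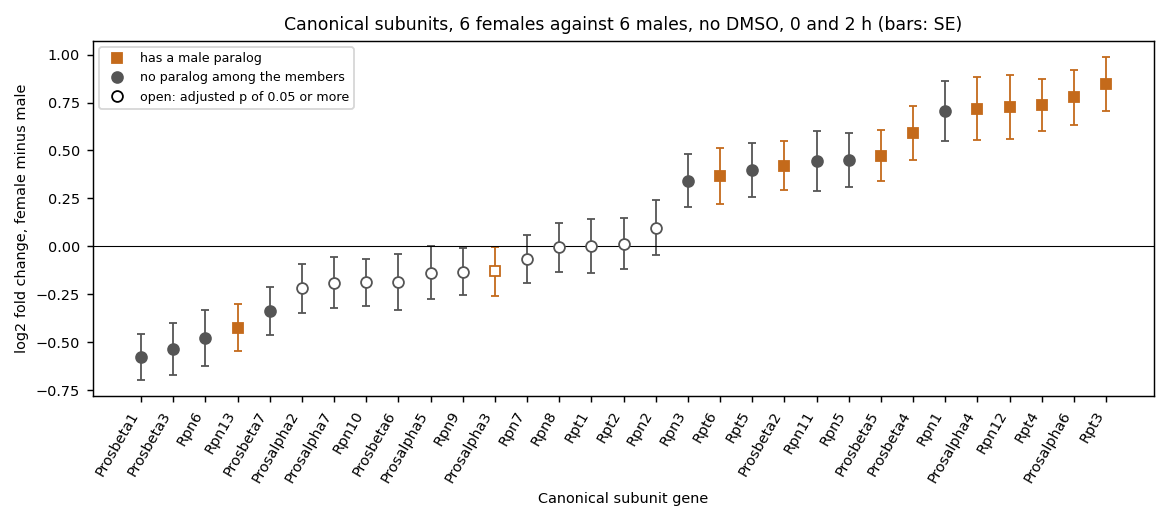
Log2 fold change, female minus male with TMM scaling, of the 31 tested canonical subunits in 6 females against 6 males without DMSO, with bars of 1 SE. Orange squares have a paralog and grey circles have none, and open symbols had an adjusted p of 0.05 or more. Of the 11 squares 9 lie at 0.37 or above.

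The canonical gene and its paralogs were then added up per coding kilobase. In the same 12 flies the canonical genes alone gave a median log2 difference of 0.62 (female minus male) over the 11 subunits, above 0 for 9 of them. The sum with the paralogs gave -0.26, above 0 for 2 of 11. Without scaling factors the values were 1.22 (11 of 11) and 0.32 (10 of 11), so the sign of the sum depended on scaling.

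A measure free of scaling is the level relative to the subunits without a paralog in the same library. The mean CPM per coding kilobase of those 20 subunits was set at 100% in each of 47 females and 48 males. Most of these males came from another sequencing run than the females, so sex and run are largely confounded in this comparison. The 11 canonical genes had a median of 118.4% in females and 73.4% in males, and the male median was the lower for 10 of the 11. For 8 of the 11 every male lay below every female. On the same measure this held for 3.92% of all 11561 genes with a mean of at least 10 counts a library, and every male lay above every female for 20.4%. With the paralogs added, the male value became 126.8% beside 118.4% in females. The male median was then lower for Rpt3, Rpt4 and Rpt6 only, among the 11, and for no subunit did every male lie below every female.

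The subunits differed in how the sum compared. Prosalpha6 lay at 108.4, 122.0 and 157.2% (lowest, median and highest) in females and at 52.8, 66.3 and 77.5% in males. With Prosalpha6T the males lay at 109.0, 140.8 and 156.1%, within the female range. Rpn12 went from 48.4% in males to 98.7% with Rpn12R, beside 95.1% in females. Rpt3 lay at 64.6, 74.4 and 92.3% in females and at 26.8, 35 and 54.6% in males, and with Rpt3R the males reached a median of 64.6%. Rpt4 went from 42.3 to 60.9% with Rpt4R, beside 81.4% in females. Prosbeta4 went from 91.9 to 228.6% with its 2 copies, beside 154.4% in females, and Prosbeta5 from 94.1 to 200.8%, beside 156.9%. Rpn13 was the 1 subunit of which every male lay above every female once the paralog was added, at 97.3 to 130.6% in males and 60.2 to 94.4% in females. These ratios assume that reads follow coding length, which leaves untranslated parts out.

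**Figure D4:**
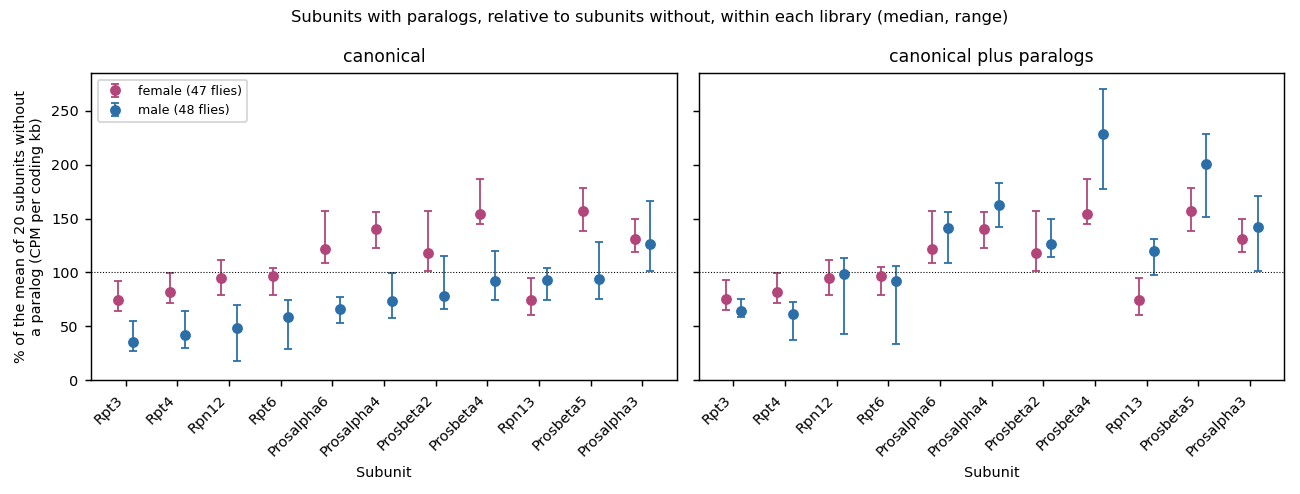
Level of the 11 subunits with paralogs as a percent of the mean of the 20 subunits without one in the same library, from CPM per coding kilobase, for the canonical gene alone (left) and the canonical gene plus its paralogs (right). Points are medians and bars the range over 47 females (red) and 48 males (blue), most of the males from another run than the females. On the left 10 of 11 male medians lie below the female ones, and on the right 3 of 11.

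Between canonical genes, levels per coding kilobase spanned 3.58-fold in females and 7.59-fold in males. Prosalpha2, an alpha ring gene without a paralog, was the highest of the 31 in both sexes, with medians of 289.4 CPM per kilobase in females and 272.8 in males. Rpn1 was the lowest in both, at 80.8 and 36.0. Between those ends the order differed between the sexes, with most males from another run than the females. Prosbeta4 stood at rank 2 in females and 12 in males, Prosbeta5 at 3 and 11, and Prosalpha4 at 7 and 17, while Prosbeta1 stood at 13 and 3. In males the 15 paralogs lay from 22.6 CPM per kilobase (Prosalpha3T) to 145.3 (Prosbeta4R2), with a median of 40.3, beside a median of 111.7 for the canonical genes. Prosbeta5R1, Prosalpha6T and Prosalpha4T2 reached 116.9, 107.1 and 97.9, within the range of the canonical genes.

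From fly to fly the canonical genes varied little. Their coefficient of variation over 47 females was 9.46 (Rpn13) to 18.1% (Rpn2), with a median of 12.9%, and over 48 males 9.67 (Rpn9) to 17.97% (Rpn1), with a median of 12.2%. The 15 paralogs varied more in the males, from 16.7% for Rpn12R to 29.6% for Prosalpha3T, with a median of 21.2%. These spreads run over all times and foods. The paralogs had mostly lower counts, which hold more counting error, and its part in the difference was not tested. A few libraries stood low. The male at 8 h on 0.1% DMSO, replicate 1, held a paralog sum of 279.7 CPM, 40.5% of the male median of 689.9, beside 74.9% for the canonical sum and 51.3% for the sum of the testis and sperm markers. The shallowest male library held 53.0, 79.0 and 59.2% of the 3 medians. The male at 0 h without DMSO, replicate 2, held 62.8, 102.6 and 62.2%. The paralogs were low with the testis markers in all 3, and what part the amount of testis RNA had in it was not tested.

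The second question was whether refeeding moved the subunits. It was asked in females over all 4 foods (12 flies against 12) and in males over the 3 foods with DMSO, which shared a run (9 against 9). CPM values for the comparisons of time and DMSO are normalised within a sex, and such values cannot be compared between the sexes. In females 32 members were tested, the 31 canonical genes and Rpt3R.

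In females at 2 h 1 of 32 members was called, beside 13.6% of all genes tested and 4.37% that were called lower. Prosalpha5 (FBgn0016697), an alpha ring gene without a paralog, lay at 147.7, 175.1 and 222.7 CPM at 0 h and at 131.5, 150.7 and 185.6 at 2 h. The ranges overlapped and it fell by 0.22 on the log2 scale (SE 0.07, adjusted p = 0.0471). That call was lost when any of 23 of the 24 flies was left out, and DESeq2 did not make it. At 4 h no member was called by edgeR's quasi-likelihood test (1 with an unadjusted p below 0.05, where DESeq2 called 0), beside 0.0% of all genes. The smallest p was again that of Prosalpha5, at -0.19 (SE 0.07, adjusted p = 0.194), and on food without DMSO alone its value was 0.03.

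In females at 8 h no member was called by edgeR's quasi-likelihood test, beside 3.59% of all genes (2 with an unadjusted p below 0.05, where DESeq2 called 1, Rpn6). Rpn6, a lid subunit, lay at 146.6, 199.5 and 236.8 CPM at 0 h and at 180.0, 228.3 and 261.1 at 8 h, a log2 fold change of 0.20 (SE 0.07, adjusted p = 0.0923) with ranges that overlapped. Without the library with male transcripts its value was 0.22 (adjusted p = 0.127), and DESeq2 again called it. The values of 28 of the 32 members were above 0, with a median of 0.08, where the median of all genes was 0.00. Without the library with male transcripts 30 were above 0, with a median of 0.10. Egg shell markers moved with the hours of refeeding. Of 20 tested, 5 were lower at 2 h than at 0 h and 3 were lower at 8 h, and none was higher. Their summed level was 316.3, 4929 and 15870 CPM at 0 h (lowest, median and highest of 12), 22.99, 4507 and 9839 at 2 h and 75.5, 1270 and 4634 at 8 h. At 8 h they had a median log2 fold change of -2.81 and the 24 female germline markers one of 0.26, with none of the latter called by edgeR's quasi-likelihood test. Their part in the members' values was not tested. Rpt3R gave 1.02 (SE 0.41, adjusted p = 0.144), and 0.43 (SE 0.37, adjusted p = 0.445) without the library with male transcripts.

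In males no member was called at 2 h or 4 h by edgeR's quasi-likelihood test, beside 1.4 and 0.957% of all genes. At an unadjusted p under 0.05 there were 3 and 5, and DESeq2 called 0 at both times. The smallest p at 2 h was that of Prosalpha5, at 113.4, 139.2 and 162.3 CPM at 0 h and 101.8, 116.3 and 129.6 at 2 h, a log2 fold change of -0.24 (adjusted p = 0.153). At 4 h it was that of Prosbeta5, at 85.1, 108.1 and 145.4 CPM at 0 h and 76.2, 94.9 and 117.4 at 4 h, a change of -0.25 (SE 0.09, adjusted p = 0.195). The 0 h and later flies overlapped for both genes.

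At 8 h, 4 of the 46 members tested in males fell and none rose, beside 11.3% of all genes called and 4.38% called lower. All 4 were canonical genes without a paralog. Rpn8 (FBgn0002787), a lid subunit that pairs with Rpn11, lay at 79.2, 93.5 and 119.2 CPM at 0 h and at 60.9, 74.9 and 101.8 at 8 h. It fell by 0.34 on the log2 scale (SE 0.08, adjusted p = 0.00298). Prosalpha5 lay at 113.4, 139.2 and 162.3 CPM at 0 h and at 68.9, 111.7 and 141.8 at 8 h, and fell by 0.32 (SE 0.09, adjusted p = 0.013). Rpn2 (FBgn0028692), a scaffold, lay at 137.8, 166.6 and 194.6 CPM and then at 86.2, 123.8 and 169.6, and fell by 0.38 (SE 0.10, adjusted p = 0.0149). Rpt1 (FBgn0028687), an ATPase, lay at 105.5, 115.6 and 141.1 CPM and then at 73.5, 99.7 and 117.3, and fell by 0.27 (SE 0.08, adjusted p = 0.0206). For all 4 genes the flies at 8 h overlapped those at 0 h.

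Over the 46 members 37 had a value below 0 at 8 h, with a median of -0.13 where the median of all genes was 0.01. None of the 15 paralogs was called by edgeR's quasi-likelihood test. Their values ran from -0.43 to 0.03 with a median of -0.17, and 2 had an unadjusted p under 0.05. The males at 8 h include replicate 1 on 0.1% DMSO. Its paralog, canonical and testis marker sums were 40.5, 74.9 and 51.3% of the male medians. Without scaling factors all 4 called genes kept their direction and none was called, and with all 4 foods and the run as a factor only Rpn8 was called. Leaving out 1 male at a time gave 3 to 8 called genes, with 3 without replicate 3 of 8 h on 0.4% DMSO and 8 without replicate 2 of 8 h on 0.1%. Accessory gland markers moved with the same comparison. Of 14 such markers 11 rose at 8 h, and their summed level was 5167 to 8263 CPM in the 9 males at 0 h and 9788 to 15290 in the 9 at 8 h. Their part in the members' values was not tested. The testis and sperm markers summed to 17570 to 19340 CPM at 0 h and 9016 to 21710 at 8 h.

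**Figure D5:**
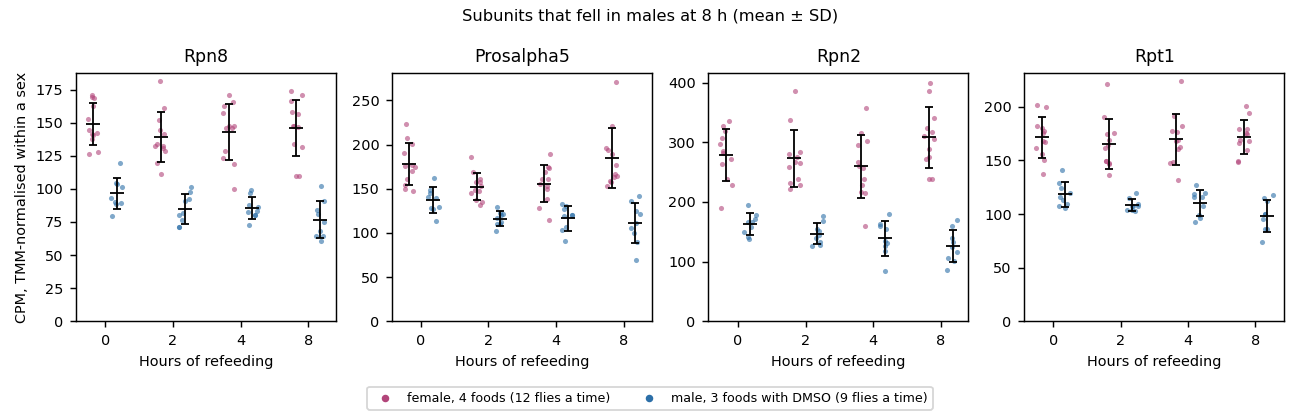
CPM, normalised within a sex, of the 4 subunits that fell in males at 8 h, by hours of refeeding, with mean and SD, for females on 4 foods (red, 12 flies a time) and males on the 3 foods with DMSO (blue, 9 flies a time). The sexes are not on 1 scale. The male points at 8 h reach lower than those at 0 h and overlap them in each panel.

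Whether the change from 0 h differed between the sexes was tested on the 3 foods with DMSO over all 96 libraries. No member was called at 2, 4 or 8 h by edgeR's quasi-likelihood test, beside 0.00766, 0.0 and 0.0459% of all genes. For most of the 15 paralogs this test could not decide, since they had almost no reads in females. Their median SE was 806.7, 596.7 and 7221.6 on the log2 scale at the 3 times. At an unadjusted p under 0.05 there were 0, 1 and 4 members. DESeq2 called 0, 1 and 6, all paralogs, beside 4.1, 3.06 and 5.56% of all genes in its own fits, and 0 at each time without the library with male transcripts. The smallest p at 2 h was that of Rpn5, a lid subunit, at -0.27 (SE 0.18, adjusted p = 0.594), with medians from 229.5 to 200.6 CPM in females and from 101.1 to 102.0 in males. At 4 h it was that of Prosalpha2, at -0.29 (SE 0.14, adjusted p = 0.423), with medians from 233.3 to 231.3 CPM in females and from 160.2 to 172.5 in males. At 8 h it was that of Rpt3R, at 1.23 (SE 0.44, adjusted p = 0.325), with female values at 8 h of 0.921 to 14.6 CPM, the highest being the library with male transcripts, and male values of 21.3 to 56.2. Without that library the value was 0.48 (SE 0.41, adjusted p = 0.994).

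The third question was whether DMSO moved the subunits. Females on 0.4% DMSO were set against females without it over 2, 4 and 8 h (9 flies against 9). No member was called by edgeR's quasi-likelihood test, beside 0.00994% of all genes (3 of 32 with an unadjusted p below 0.05, where DESeq2 called 0). All 32 values were below 0, with a median of -0.12 where the median of all genes was 0.03, and all 32 were below 0 without the library with male transcripts, again with a median of -0.12. Without scaling factors the median of all genes was itself lower, at -0.155. In that setting 24 of the 32 had an unadjusted p below 0.05, and none was called by edgeR's quasi-likelihood test. With TMM the smallest p among the 32 was that of Prosalpha5, at 135.5, 161.2 and 270.6 CPM without DMSO and at 114.3, 157.8 and 189.7 on 0.4%. Its log2 fold change was -0.22 (SE 0.09, adjusted p = 1.0) with ranges that overlapped, and -0.24 without the library with male transcripts. Rpt3R gave -0.64 (adjusted p = 1.0), and -1.47 (SE 0.47, unadjusted p = 0.0034, adjusted p = 1.0) without the library with male transcripts.

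With the 3 DMSO levels tested together against none, no member was called in females by edgeR's quasi-likelihood test, beside 0.0398% of all genes, with 0 below an unadjusted p of 0.05 and 0 called by DESeq2. Without the library with male transcripts no member was called by edgeR's quasi-likelihood test, 1 had an unadjusted p below 0.05 and DESeq2 called 0. At 0 h, before any DMSO had been eaten, females assigned to 0.4% were set against those assigned to none (3 against 3). No member was called by edgeR's quasi-likelihood test, beside 0.0% of all genes (1 with an unadjusted p below 0.05, where DESeq2 called 0). The values of 28 of the 32 members were above 0, with a median of 0.12. Without the library with male transcripts, which lies outside this comparison but in the fit, 32 of 32 were above 0, with a median of 0.18. Rpt5 had the smallest p, with 102.3, 131.9 and 129.9 CPM in the 3 females without DMSO and 172.0, 155.3 and 137.7 in the 3 assigned to 0.4%. The groups did not overlap, and the share of all genes for which this held is not given. The log2 fold change of Rpt5 was 0.35 (SE 0.15, adjusted p = 0.953), and 0.41 (SE 0.19, adjusted p = 0.953) without the library with male transcripts.

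In males 0.4% was set against 0.1% DMSO, which shared a run (9 against 9). No member was called by edgeR's quasi-likelihood test, beside 0.0% of all genes (0 of 46 with an unadjusted p below 0.05, where DESeq2 called 0). Prosalpha5 had the smallest p, at 68.9, 112.6 and 121.7 CPM on 0.1% and at 99.3, 122.8 and 135.9 on 0.4%, a log2 fold change of 0.17 (SE 0.09, adjusted p = 0.754). At 8 h the 9 males on DMSO were set against the 3 without it. No member was called by edgeR's quasi-likelihood test, beside 0.00791% of all genes (0 with an unadjusted p below 0.05, where DESeq2 called 0). Rpt3R had the smallest p, at 45.7, 56.3 and 61.5 CPM without DMSO and at 21.3, 45.95 and 56.2 (lowest, median and highest of 9) with it, a change of -0.35 (SE 0.20, adjusted p = 0.924). All 15 paralogs had values below 0, from -0.42 to -0.07, and the testis and sperm markers had a median of -0.10. The 9 males on DMSO include replicate 1 on 0.1%, with paralog and testis marker sums of 40.5 and 51.3% of the male medians. Replicate 3 on 0.1% held 82.3 and 85.8%. What part these flies had in the paralogs' values was not tested.

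Genes that work with the proteasome were counted in the same comparisons. Where their CPM is set between the sexes, it is normalised over all 96 libraries, as in the first question. Between the sexes, with TMM scaling, 3 of the 7 regulators and assembly factors were higher in females and 4 in males. These counts, and those of the lists that follow, stand beside the 26.1% of all genes that were higher in females and the 39.8% that were higher in males. PI31, which binds the core particle, had medians of 53.2 CPM in the 6 females and 186.9 in the 6 males, a log2 fold change of -1.89 (SE 0.13, adjusted p = 1.11e-08). Uch-L5, a deubiquitinase of the regulatory particle, had medians of 45.7 and 111.4 CPM, a change of -1.21, and PSMG1, an assembly chaperone, 45.02 and 72.4, a change of -0.67. The groups did not overlap for any of these 3 genes, and the share of all genes for which they did not is not given.

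Of 9 ubiquitin and caspase genes known from the individualisation of sperm, soti and Roc1b passed the filter on low counts through the males alone, so their direction was bound to be found. Of the other 7, 4 were higher in males and 2 in females. The caspase-pathway genes Drice and Dronc were higher in females, at 1.81 and 1.56. The ubiquitin ligase subunit Cul3 had medians of 72.3 CPM in females and 423.5 in males, and its inhibitor soti 0 and 230.2. The F-box gene ntc had 10.3 and 147.5, and Roc1b, a RING subunit, 0.0757 and 46.6.

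Of 12 genes of ubiquitin, its enzymes and shuttle receptors, 4 were higher in females and 5 in males. Ubi-p63E, a polyubiquitin gene, had medians of 226.6 CPM in females and 931.5 in males, while RpS27A and RpL40, which encode ubiquitin fused to a ribosomal protein, had 1562 and 709.2, and 991.5 and 519.4. Of 5 genes of the Cdc48 complex 3 were higher in males, Ufd1 by -1.12, Npl4 by -0.87 and p47 by -0.44. Of 5 regulators around cnc 1 was higher in females and 2 in males, with maf-S at -0.82, Pngl at 0.51 and rngo at -0.43. Values between -0.64 and 0 lie within the shift of the median gene without scaling factors, so the direction of p47 and rngo rests on TMM.

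In males at 8 h, beside 11.3% of all genes, 2 of the 7 regulators, 3 of the 12 ubiquitin genes, 1 of the 9 sperm individualisation genes and 1 of the 5 Cdc48 genes were called. Pomp, a chaperone of core assembly, rose by 0.37 (adjusted p = 0.00263), from a median of 93.4 to one of 118.8 CPM, and Uch-L5 fell by 0.47. Ubi-p5E, a polyubiquitin gene, rose by 0.82, from 131.7 to 252.2 CPM, and Uba1, the ubiquitin-activating enzyme, and Ufd4, a ligase, fell by 0.33 and 0.31. Duba fell by 0.58 and casp by 0.22, and none of the 5 regulators around cnc was called by edgeR's quasi-likelihood test.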

How the data were processed

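Polyadenylated RNA of 96 single flies was sequenced as stranded libraries, after mixing with RNA of Drosophila grimshawi and Anopheles stephensi, per the labels' protocols. The authors deposited whole-number counts per gene for each library, with 17370 genes, 96 spike-in transcripts and 5 summary lines. Per the submitters' processing notes, HTSeq 0.6.1p1, TopHat2 2.1.0, STAR 2.4.2a, bcl2fastq 1.8 and CASAVA 1.8.2 were used in some role. No build was stated, so no coordinates are reported. Summary lines (8.73 to 23.3% of a library) and spike-ins were left out of library sizes. Symbols were found for 17155 genes.

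Groups came from the sample titles. For the male library at 0 h, 0.4% DMSO, replicate 2 another label field gives 8 h, and the title was used. Of 96 pairs of replicates none held identical counts (smallest chi-square per degree of freedom 4.38). Replicates were separate flies.

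Tests used edgeR 4.0.16 in R 4.3.3, the quasi-likelihood test, TMM scaling, filterByExpr (minimum count 10) and Benjamini-Hochberg adjustment over all genes at 0.05. The fits held 12069 genes (sex, 12 libraries), 10060 (48 females), 12644 (48 males) and 13061 (all 96). The scripts were tested on simulated data. DESeq2 1.42.0, relative log expression size factors, no scaling, no filter, a replicate block, removal of ribosomal RNA genes, subsets of times and foods and leaving out each fly were tried. Coding lengths and exons came from the Ensembl annotation BDGP6.54, and levels per kilobase used TMM-normalised CPM, where the design had named RefSeq lengths and CPM without TMM. The lists and members were chosen with earlier results of these data known. Named are each subunit with a paralog in the sex comparison, in other comparisons up to 8 called members or the one with the smallest p, the highest and lowest level per kilobase, and up to 3 called genes per list. Rpn1, Prosbeta1 and other canonical genes without a paralog, list genes past 3 and low libraries were named after their values were seen. Klhl10, TER94 and a few markers of the lists were not analysed here.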

Additional observations from a re-analysis of the deposited data

How the results depend on the processing

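Sex calls were 34 of 46 members, beside 65.9% of all genes, and 29 to 33 when 1 fly was left out. These counts hold 15 paralogs whose call the filter fixed, so nothing is read from their range. Of the 31 canonical genes 27 were called with all 96 libraries, 22 as higher in females and 5 in males. At 8 h on the 3 foods with DMSO, with or without the library with male transcripts, 24 were called, 23 and 1. At 0 h alone 12 were called, 8 and 4, and at 2 h alone 12, 10 and 2. In the main setting 19 were called, 14 as higher in females, and 14 to 18 when 1 fly was left out. Those higher in females became 8 without replicate 2 of the females at 0 h, 7 without replicate 2 of those at 2 h and 9 without replicate 1 of the males at 2 h, and those higher in males went from 5 to 8 without either of those females. Without scaling factors the genes higher in males reversed, to 0.037 (Prosbeta1), 0.076 (Prosbeta3), 0.134 (Rpn6), 0.191 (Rpn13), 0.272 (Prosbeta7), none of them called there. Prosalpha3, not called in the main setting, was called there at 0.499. At 8 h on 3 foods Rpn6 (0.142), Rpn13 (0.085), Prosbeta7 (0.003) and Prosalpha3 (0.459) reversed, and without the library with male transcripts Rpn6 (0.093), Rpn13 (0.04) and Prosalpha3 (0.405) did so. With all 96 libraries Prosalpha3 was 0.242. The causes were not tested.

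In females at 2 h the 1 call became 0 with relative log expression factors, no filter, no ribosomal RNA genes, no scaling factors, no library with male transcripts, DESeq2 with and without that library, food without DMSO alone and the 3 foods with DMSO alone, and was 0 to 1 when 1 fly was left out. At 4 h Prosalpha5 reversed to 0.031 on food without DMSO alone. At 8 h DESeq2 called 1, with and without that library. In males at 8 h the 4 calls became 0 without scaling factors, 1 with the run as a factor and 3 to 8 when 1 fly was left out. For the sex difference of the change, DESeq2 called 1 at 4 h and 6 at 8 h. Over all genes DESeq2 called 255 in females at 4 h, where edgeR called 0, and 704 at 8 h, where it called 361.

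Replicate numbers did not pair the flies: same-numbered libraries correlated at a median of 0.002 and differently numbered ones at 0.001. With a replicate block the female call at 2 h went from 1 to 0, and the count between sexes stayed at 34. The share of Rpn13 was 17.0% without length correction. Promoter motifs were not run, since no promoter sequence was at hand. Counts limited the paralogs in females, where most had 0 to 3 reads in all.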
